A study of Mus musculus with 88 samples.

Results

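The genes described here carry fatty acids into the heart muscle cell and oxidize them in mitochondria and peroxisomes. They were chosen by name as 33 genes of uptake, the carnitine shuttle, beta-oxidation and its electron acceptors, with uncoupling proteins and a pyruvate dehydrogenase kinase. Earlier results of these data were known when they were chosen. Of the 33, 27 had a probe set on the array that the platform annotation gives to that gene alone, and 25 of these were in the upper 60% of probe sets by mean signal, as 25 of the 5672 genes tested. Acadvl and Ehhadh, an acyl-CoA dehydrogenase for long chains and a peroxisomal enzyme, were below that limit. Acsl1, Cpt1b, Hadha, Acot2, Acat1 and Ucp2 had no such probe set and have no values here.

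Whole hearts of 88 mice were measured, 1 mouse per array. The dKO mice were SR-BI-/- apoE-/- and so lacked both the receptor for high-density lipoprotein and apolipoprotein E, while the control mice, called HET, were SR-BI+/- apoE-/-. Apolipoprotein E was therefore absent by genotype in both, and no wild-type heart was in the comparison. Mice were taken at an age of 21, 31 or 43 days, fed either chow or a diet containing probucol, a drug that lowers cholesterol and acts as an antioxidant. In that order of age, dKO mice on chow numbered 10, 10 and 12, dKO mice on probucol 6, 8 and 6, HET mice on probucol 3, 3 and 2, and HET mice on chow 9, 10 and 9. Per the study's design text, chow-fed dKO mice showed no coronary disease that could be detected at 21 days, had small infarcts and heart failure at 31 days, and had extensive infarcts with severe failure at 43 days. The mutations are present in every cell, and the heart was taken whole, so infarcted and surviving muscle were measured together.

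The adult heart draws most of its energy from long-chain fatty acids. They are released from lipoproteins at the vessel wall, bound to proteins in the cell, activated to acyl-CoA and passed through the inner mitochondrial membrane as carnitine esters. Beta-oxidation then shortens them in repeated rounds of dehydrogenation, hydration, dehydrogenation and thiolysis. Many of the genes are targets of the nuclear receptor PPAR alpha and of the estrogen-related receptors, and a lower expression of them with a turn to glucose is known from failing hearts.

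Levels are log2 signals after each array was centred on its own median, and a difference of 1 on this scale is a factor of 2. Levels of different genes come from different probe sets and are not set against each other. Differences were tested with limma and called at a Benjamini-Hochberg adjusted p under 0.05 over the 5672 genes. Scarb1, which encodes SR-BI, had group means of 0.88 to 1.15 in dKO hearts and 1.89 to 2.25 in HET hearts. Whether its probe set lies in the deleted part could not be checked here. Array medians ran between 27.8 and 75.4 signal units. The arrays fell into a larger set of 68 and a smaller set of 20 by a shared expression pattern left after the group means, whose origin the labels do not give. Of dKO chow hearts, the smaller set took 6 of the 10 aged 21 days and none of the older ones. Of HET chow hearts it took 2 of 9, 6 of 10 and 3 of 9 in order of age.

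At 21 days, when the design text gives no detectable coronary disease, no fatty acid gene was called between dKO and HET hearts on chow. Of 25 genes, 0 were called lower and 0 higher in dKO hearts by limma, against 0.917% and 4.07% of all genes, and 1 had an unadjusted p under 0.05. Their median difference was 0.01, beside 0.12 for all genes tested. The gene with the unadjusted p under 0.05 was Acadl, the long-chain acyl-CoA dehydrogenase, at 3.71 ± 0.47 in dKO and 4.23 ± 0.53 in HET hearts (SD, n = 10 and 9), a log2 difference of -0.52 ± 0.20 (SE, limma adjusted p = 0.106). Within the smaller set of arrays the median difference was 0.32 and within the larger set -0.17, with 0 genes called in either.

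At 31 days most of the genes were lower in dKO hearts. Of 25, 22 were called lower and 0 higher, against 23.0% and 8.27% of all genes, and the median difference was -0.64, beside -0.14 for all genes. The widest differences were in Ucp3, a mitochondrial carrier of heart and muscle whose level follows fatty acid supply, at -1.40 ± 0.27 (limma adjusted p = 4.38e-05), and in Pdk4, at -1.37 ± 0.31 (limma adjusted p = 0.000351). Ucp3 was -1.10 to 0.28 in dKO hearts with a median of -0.13, against -0.40 to 1.94 with a median of 1.36 in HET hearts. Pdk4, the kinase that shuts pyruvate out of the citric acid cycle when fatty acids are burned, was 2.57 to 4.98 in dKO hearts with a median of 3.68, against 3.80 to 5.57 with a median of 5.32 in HET hearts. Both genes had overlapping ranges. Eci1, an enoyl-CoA isomerase for unsaturated chains, was the 1 gene whose groups did not overlap, at 3.74 to 4.26 in dKO and 4.39 to 5.16 in HET hearts, against 0.547% of all genes so separated. The genes not called were Slc27a1 (-0.05 ± 0.38), Cpt1a (0.12 ± 0.21) and Acaa1a (-0.31 ± 0.14, limma adjusted p = 0.0795). Some calls depend on the probe set. Tested without the filter on low signal, further probe sets of Cpt2 (-0.03 ± 0.24), Etfb (-0.19 ± 0.21), Lpl (-0.41 ± 0.30) and Crat (-0.82 ± 0.34) were not called. That of Acads was called, at -0.51 ± 0.13. Within the larger set of arrays, which held all dKO chow hearts of this age, 14 genes were lower, against 5.98% of all genes. Where arrays were centred on heart muscle cell markers in place of the array median, 9 were lower and Cpt1a higher, against 1.69% lower and 30.1% higher of all genes.

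At 43 days 23 of the 25 genes were lower in dKO hearts and 0 higher, against 28.0% and 19.2% of all genes. Their median difference was -1.19, beside -0.09 for all genes. Slc27a1 and Cpt1a were not called. For 9 genes every dKO heart was below every HET heart, against 3.1% of all genes: Cpt2, Crat, Mlycd, Acadm, Hadh, Ech1, Eci1, Ivd and Ucp3.

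**Figure D1:**
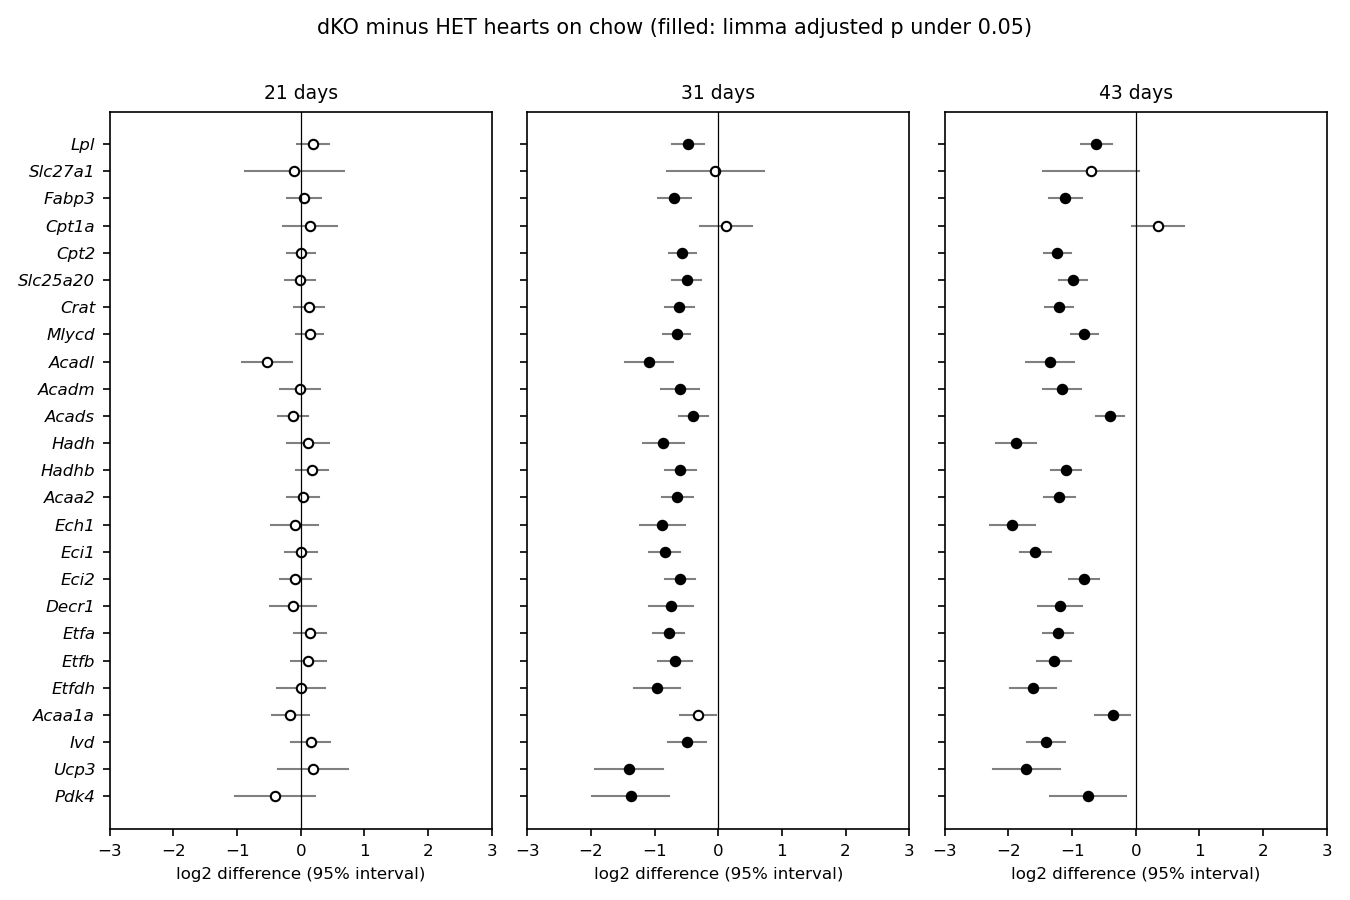
Log2 difference between dKO and HET hearts on chow for the 25 genes tested, at 21, 31 and 43 days, with the 95% interval of the limma fit; filled points passed an adjusted p of 0.05. No point is filled at 21 days, 22 are at 31 days and 23 at 43 days, all of the filled ones below 0.

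Among the uptake genes, Fabp3, the fatty acid binding protein of heart muscle, ran between 4.88 and 5.96 in dKO chow hearts at 43 days with a median of 5.28, against 5.85 to 7.07 with a median of 6.42 in HET chow hearts. The ranges overlapped slightly. The difference was -1.11 ± 0.13, which is 2.15-fold lower (limma adjusted p = 9.61e-12). Lpl, the lipase that frees fatty acids from circulating triglyceride, was 5.33 to 6.11 in dKO hearts with a median of 5.74, against 5.80 to 6.78 with a median of 6.42 in HET hearts. Its difference was smaller, -0.62 ± 0.12 (limma adjusted p = 1.62e-05). A further Lpl probe set, tested without the filter on low signal, gave -0.35 ± 0.30 (limma adjusted p = 0.369). Slc27a1, a fatty acid transport protein, averaged 0.48 ± 0.84 in dKO and 1.19 ± 1.13 in HET hearts (SD, n = 12 and 9). With hearts spread over more than 3 units, its difference of -0.70 had a 95% interval of -1.45 to 0.05.

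In the carnitine shuttle, Cpt2, which rebuilds acyl-CoA inside the mitochondrion, was 3.17 to 3.97 in dKO hearts with a median of 3.62, against 4.14 to 5.22 with a median of 4.82 in HET hearts. The groups did not overlap, and the difference was -1.23 ± 0.11 (limma adjusted p = 2.45e-17). A dimmer Cpt2 probe set gave -0.67 ± 0.24. Crat, which interchanges acetyl-CoA and acetylcarnitine, was lower, at -1.21 ± 0.11, and its other probe set gave -1.25 ± 0.33. Slc25a20, the carnitine acylcarnitine carrier of the inner membrane, was 1.97-fold lower, at -0.98 ± 0.11. Mlycd, which breaks down malonyl-CoA and so releases the brake on carnitine palmitoyltransferase, was lower, at -0.81 ± 0.11.

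Cpt1a stood apart from the other shuttle genes. It encodes the liver form of carnitine palmitoyltransferase, the step that commits a fatty acid to the mitochondrion, and the fetal heart uses more of it than the adult heart does. It was 1.92 to 3.13 in dKO hearts at 43 days with a median of 2.39, against 0.93 to 2.62 with a median of 2.31 in HET hearts. The ranges overlapped and the difference of 0.35 was not called (95% interval -0.05 to 0.75, limma adjusted p = 0.152). It was the 1 gene of the 25 with a positive difference at both 31 and 43 days. Centred on heart muscle cell markers, Cpt1a was higher in dKO hearts at 43 days by 0.92 (limma adjusted p = 7.55e-05), but on that scale 53.9% of all genes were called higher and their median difference was 0.48. Its muscle counterpart Cpt1b was not analysed here.

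The enzymes of the beta-oxidation spiral were all called lower, 6 of the 6 tested, against 28.0% of all genes. Hadh, the dehydrogenase for short-chain hydroxyacyl-CoA, was 2.57 to 3.33 in dKO hearts with a median of 2.89, against 4.01 to 5.27 with a median of 4.84 in HET hearts. The gap between the groups was wide and the difference was -1.88 ± 0.16, which is 3.69-fold lower (limma adjusted p = 1.49e-17). Acadl was lower, at -1.34 ± 0.19, Acaa2, the last thiolase of the spiral, at -1.2 ± 0.12, and Acadm, the medium-chain dehydrogenase, at -1.16 ± 0.15. Hadhb, the thiolase subunit of the trifunctional protein, was lower, at -1.10 ± 0.12. Acads, the short-chain dehydrogenase, changed least, at -0.40 ± 0.11 (limma adjusted p = 0.00197), but its other probe set gave -1.10 ± 0.12, so the size for this gene depends on the probe set. Acadvl, below the signal limit and at the floor on 46 of 88 arrays, had differences of -0.53 and -0.62 on its probe sets, neither called.

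**Figure D2:**
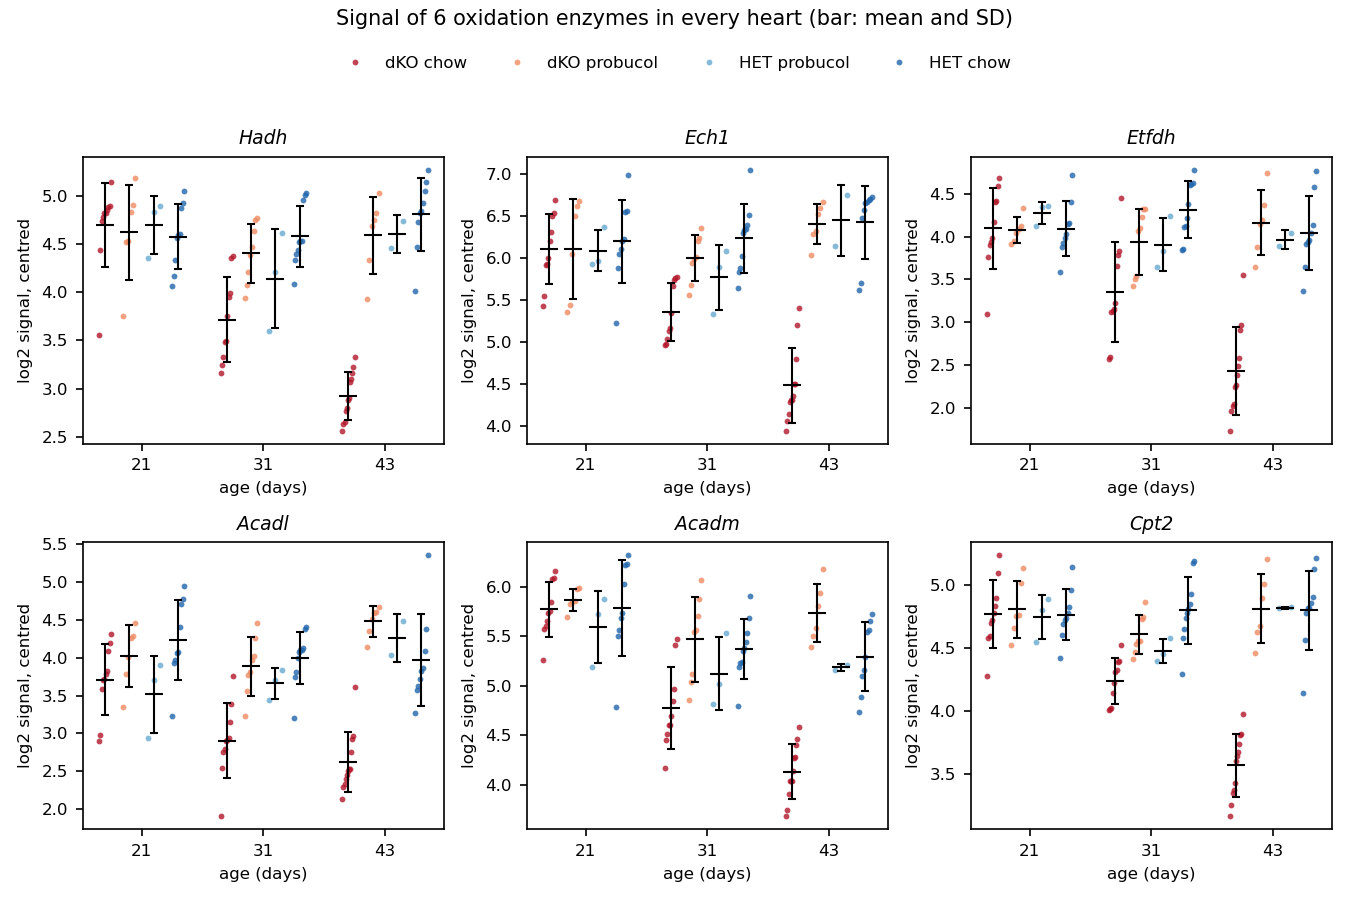
Centred log2 signal of 6 enzymes in every heart, by age and group, with the mean and SD of each group as a black bar. At 43 days the dKO chow hearts have the lowest mean in all 6 panels, with Hadh at 2.57 to 3.33 against 4.01 to 5.27 in HET chow hearts.

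Unsaturated fatty acids need extra isomerases and a reductase, and all 4 of these enzymes were lower, against 28.0% of all genes. Ech1, a dienoyl-CoA isomerase, had the widest difference of the 25 genes. It was 3.95 to 5.40 in dKO hearts with a median of 4.33, against 5.62 to 6.73 with a median of 6.65 in HET hearts. The groups did not overlap and the difference was -1.94 ± 0.18, which is 3.83-fold lower (limma adjusted p = 4.43e-16). Eci1 was lower, at -1.58 ± 0.12, Decr1, the dienoyl-CoA reductase, at -1.19 ± 0.17, and Eci2, a second enoyl-CoA isomerase, at -0.81 ± 0.12.

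Electrons from the acyl-CoA dehydrogenases pass through electron transfer flavoprotein, of which Etfa and Etfb are the subunits, to its oxidoreductase Etfdh in the inner membrane. All 3 were lower, against 28.0% of all genes. Etfdh was 1.73 to 3.56 in dKO hearts with a median of 2.32, against 3.37 to 4.77 with a median of 3.96 in HET hearts. The ranges overlapped slightly, and the difference was -1.61 ± 0.18 (limma adjusted p = 1.82e-12). Etfb was lower, at -1.28 ± 0.13, and Etfa at -1.22 ± 0.12. A dimmer probe set of Etfb gave 0.32 ± 0.21, not called, and so disagreed with the one used.

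Of the other enzymes, Ivd, an acyl-CoA dehydrogenase of leucine breakdown, was 0.91 to 1.95 in dKO hearts with a median of 1.32, against 2.05 to 3.33 with a median of 2.75 in HET hearts. The groups did not overlap and the difference was -1.41 ± 0.15 (limma adjusted p = 1.48e-13). Acaa1a, a peroxisomal thiolase, was lower by a small amount, -0.36 ± 0.14 (limma adjusted p = 0.0258). Ehhadh, at the floor on 28 arrays, had a difference of -1.02 ± 0.32 without the signal filter (limma adjusted p = 0.00756). Ucp3 was -2.30 to 0.02 in dKO hearts with a median of -1.06, against 0.15 to 1.21 with a median of 0.63 in HET hearts. The groups did not overlap and the difference was -1.72 ± 0.27, which is 3.29-fold lower (limma adjusted p = 6.13e-08). Pdk4 was 2.06 to 4.08 in dKO hearts with a median of 3.03, against 2.83 to 4.61 with a median of 4.02 in HET hearts. These ranges overlapped widely and the difference of -0.75 ± 0.30 passed by a small margin (limma adjusted p = 0.0334).

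The genes are transcribed from starts in many places of the genome, and their windows upstream were searched for the letters that the nuclear receptors named above bind. The windows are shown for Ucp3 and Acadm, which were lower, and for Cpt1a, which was not. Each is the 250 bases before the gene's start in RefSeq, build GRCm38.p6, read 5′ to 3′ on the gene's strand, with the hexamer AGGTCA or its reverse complement TGACCT in capitals.
Ucp3, chr7:100472741-100472990, plus strand: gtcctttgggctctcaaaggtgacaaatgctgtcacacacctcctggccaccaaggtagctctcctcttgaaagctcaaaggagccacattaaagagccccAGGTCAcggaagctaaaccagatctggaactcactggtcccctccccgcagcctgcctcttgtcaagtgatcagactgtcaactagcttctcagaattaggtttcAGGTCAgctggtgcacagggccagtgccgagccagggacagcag
Acadm, chr3:153944644-153944893, minus strand: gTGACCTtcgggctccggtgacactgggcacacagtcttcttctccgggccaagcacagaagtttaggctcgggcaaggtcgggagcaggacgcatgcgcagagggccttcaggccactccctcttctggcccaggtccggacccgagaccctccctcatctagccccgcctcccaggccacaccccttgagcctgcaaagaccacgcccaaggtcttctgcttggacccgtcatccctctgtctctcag
Cpt1a, chr19:3323051-3323300, plus strand: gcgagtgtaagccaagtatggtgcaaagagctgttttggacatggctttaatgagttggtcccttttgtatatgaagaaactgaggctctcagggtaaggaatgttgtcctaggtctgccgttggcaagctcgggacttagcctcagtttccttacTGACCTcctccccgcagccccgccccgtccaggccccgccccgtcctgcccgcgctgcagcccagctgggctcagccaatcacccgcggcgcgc

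Ucp3 held the hexamer with 143 and 38 bases between it and the start, Acadm with 243 and Cpt1a with 88. Of 27 genes matched in the table, 4 held it on either strand (also Acadvl), against 14.0% of all 32536 windows. A direct repeat of the hexamer with 1 base between, AGGTCANAGGTCA, was in 0 of the genes and 0.0338% of windows, and the estrogen-related receptor element TCAAGGTCA, which contains the hexamer, in 0 and 0.375%. A match or its lack describes these letters in this window and nothing more.

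The genotype difference widened with age. The change of the difference between 21 and 43 days was called for 20 of the 25 genes, all lower, against 23.5% lower and 9.61% higher of all genes. It was -2.0 ± 0.23 for Hadh (limma adjusted p = 4.74e-11), -1.91 ± 0.38 for Ucp3 and -1.85 ± 0.26 for Ech1. Between 21 and 31 days it was called for 18 genes, all lower, against 20.9% lower and 4.27% higher of all genes. That earlier count rested on the scale and the arrays: it was 0 on signals as deposited, 5 after quantile normalization, 7 with the array set as a block, 0 within the larger set and 0 when centred on heart muscle cell markers. The share of all genes called lower was also smaller there, at 0.458%, 3.12%, 1.85%, 0% and 0.476% in the same order. Between 21 and 43 days these settings gave 16, 19, 21, 17 and 14 genes lower, against 6.06%, 17.0%, 17.3%, 8.85% and 5.1% of all genes. On signals as deposited 1 gene was then higher, and 2 were when centred on muscle markers, against 32.9% and 38.1% of all genes.

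In dKO chow hearts, 20 genes were lower at 31 than at 21 days and 1 was higher, against 25.2% and 6.73% of all genes. The 1 higher was Cpt1a, by 0.57. Hadhb was lower, at -0.96 ± 0.12, and Acadm at -1.0 ± 0.15. At 43 against 31 days 18 were lower and 0 higher, against 12.1% and 7.62% of all genes, led by Etfdh at -0.93 ± 0.17 and Ech1 at -0.87 ± 0.17. On signals as deposited the first of these steps had 5 genes lower and 4 higher, against 1.04% lower and 62.5% higher of all genes. A measure of RNA quality moved with that step: the log2 ratio of the 3′ to the 5′ actin probe sets was 0.39 ± 0.35 in dKO chow hearts at 31 days and -0.16 ± 0.11 at 21 days (SD, n = 10 each). At 43 days it was 0.17 ± 0.13, and the Gapdh ratio was 0.05 ± 0.41 at 43 days and -0.16 ± 0.13 at 31 days (SD, n = 12 and 10). With the actin ratio as a covariate 20 genes were lower at 31 against 21 days and 1 higher, and with the Gapdh ratio 20 were lower at 43 against 31 days. The ratios differ between the ages compared, so such a fit cannot separate RNA quality from age.

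HET chow hearts showed no called change with age. At 31 against 21 days 0 genes were lower and 0 higher by limma, against 2.01% and 6.75% of all genes, with 6 at an unadjusted p under 0.05. At 43 against 31 days it was again 0 and 0, against 1.15% and 0.141%, with 1 such gene. That gene was Pdk4, at 3.92 ± 0.56 at 43 days and 4.98 ± 0.62 at 31 days (SD, n = 9 and 10, difference -1.06, limma adjusted p = 0.0672).

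In dKO hearts at 21 days no gene was called between probucol and chow. By limma 0 were lower and 0 higher with probucol, against 1.22% and 0.0705% of all genes, with 0 at an unadjusted p under 0.05. At 31 days 17 genes were higher with probucol and 1 lower, against 7.95% and 11.4% of all genes. The median difference was 0.50, beside 0.00 for all genes. Acadl was higher by 0.98 ± 0.20 (limma adjusted p = 0.000193), and Hadhb, higher by 0.62 ± 0.13, was the 1 gene whose groups did not overlap, against 0.511% of all genes so separated. The 1 lower was Cpt1a, at 1.05 to 2.26 with probucol with a median of 2.04, against 1.88 to 2.83 on chow with a median of 2.44. The ranges overlapped, and means of 1.80 ± 0.52 and 2.44 ± 0.32 (SD, n = 8 and 10) gave a difference of -0.65 ± 0.22 (limma adjusted p = 0.0262). Centred on heart muscle cell markers, only Acadl was higher and Cpt1a and Acaa1a were lower, against 0.476% higher and 49.1% lower of all genes. On signals as deposited 9 were higher and 2 lower, against 2.13% and 26.8% of all genes. Tested without the filter on low signal, the further probe sets of Cpt2 (0.31 ± 0.26), Crat (0.53 ± 0.36) and Etfb (0.47 ± 0.23) were not called. Nor were those of Lpl and Acads.

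At 43 days probucol raised most of the genes in dKO hearts. In all, 21 were higher and 0 lower, against 21.3% and 17.0% of all genes, and the median difference was 1.37, beside 0.08 for all genes. For 20 genes every heart of the 6 on probucol was above every heart of the 12 on chow, against 6.75% of all genes. These tests share their dKO chow hearts with the genotype comparison, so their opposite signs are not independent of each other.

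Ech1 was 6.03 to 6.66 with probucol with a median of 6.43, against 3.95 to 5.40 on chow with a median of 4.33. The difference was 1.92 ± 0.20, which is 3.78-fold higher (limma adjusted p = 2.89e-13). Acadl was 4.14 to 4.67 with probucol with a median of 4.55, against 2.13 to 3.61 on chow with a median of 2.51. The groups did not overlap for either enzyme, and the Acadl difference of 1.86 ± 0.21 was the next in size (limma adjusted p = 1.2e-11). Etfdh was higher by 1.74 ± 0.20, Hadh by 1.66 ± 0.18, Ucp3 by 1.62 ± 0.30, Ivd by 1.61 ± 0.17 and Acadm by 1.60 ± 0.17.

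Among uptake genes, Fabp3 was 6.44 to 7.0 with probucol with a median of 6.72, against 4.88 to 5.96 on chow with a median of 5.28. The groups were apart, with a difference of 1.38 ± 0.15. Slc27a1 averaged 1.61 ± 0.67 with probucol and 0.48 ± 0.84 on chow (SD, n = 6 and 12) and was higher by 1.12 ± 0.43 (limma adjusted p = 0.0297). Not called were Cpt1a at -0.43 ± 0.23, Acads at 0.28 ± 0.13, Acaa1a at 0.33 ± 0.16 and Pdk4 at 0.78 ± 0.34 (limma adjusted p = 0.0617). The call for Acads depends on the probe set, since its other one, tested without the filter on low signal, was higher by 0.85 ± 0.14 (limma adjusted p = 5.84e-07). In the same fit the further probe set of Lpl was higher by 1.26 ± 0.34, while those of Cpt2 (0.28 ± 0.27), Crat (0.81 ± 0.38) and Etfb (0.16 ± 0.24) were not called. Centred on heart muscle cell markers, 18 of the 25 were higher, against 3.79% of all genes. Cpt1a, Acads and Acaa1a were lower on that scale, as were 64.0% of all genes.

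**Figure D3:**
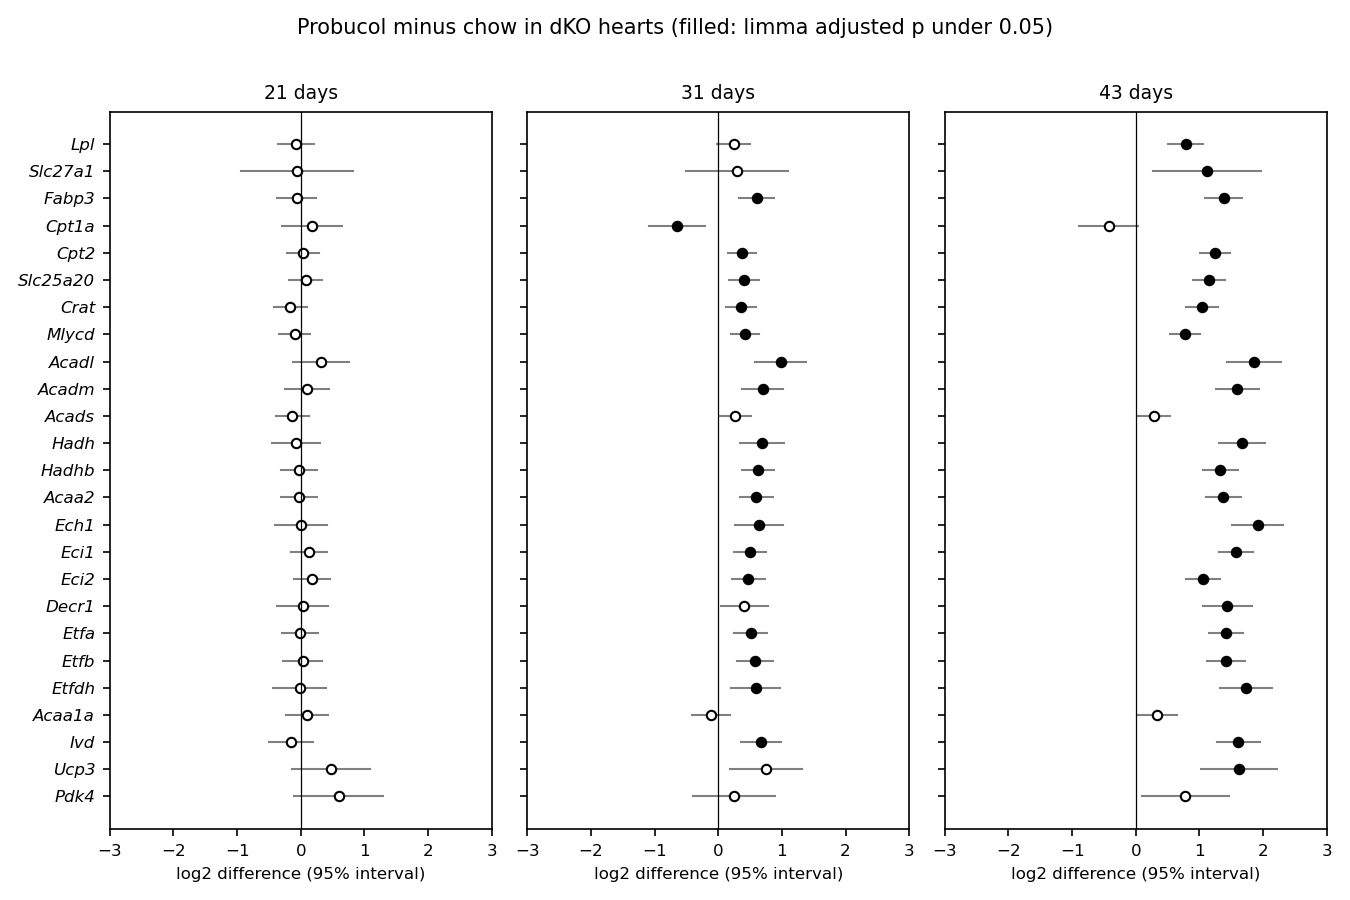
Log2 difference between probucol and chow in dKO hearts for the 25 genes at 21, 31 and 43 days, with 95% intervals; filled points passed an adjusted p of 0.05. At 43 days 21 points are filled, all above 0, while the Cpt1a point is filled at 31 days and lies below 0.

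Probucol-fed dKO hearts were also set against chow-fed HET hearts. At 21 days 0 genes were lower and 0 higher in dKO probucol hearts by limma, against 0.0353% and 0.0705% of all genes, with 1 at an unadjusted p under 0.05. At 43 days it was 0 and 0, against 0.458% and 0.317%, with 2 such genes, Acadm at 0.44 and Acadl at 0.51. Hadh averaged 4.59 ± 0.40 in dKO probucol and 4.81 ± 0.38 in HET chow hearts at 43 days (SD, n = 6 and 9), and the 95% interval of the difference was -0.60 to 0.16. For Ech1 the interval was -0.44 to 0.40, and differences within such bounds could not be told from none with these numbers of hearts.

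At 31 days 2 genes were lower in dKO probucol than in HET chow hearts and 0 higher, against 12.6% and 1.36% of all genes, and 8 had an unadjusted p under 0.05. The 2 were Pdk4, at -1.13 ± 0.32 (limma adjusted p = 0.0122), and Acaa1a, at -0.42 ± 0.15 (limma adjusted p = 0.0458). Pdk4 was 3.03 to 4.52 in dKO probucol hearts with a median of 3.89, against 3.80 to 5.57 with a median of 5.32 in HET chow hearts. The lowest hearts on probucol lay below the lowest HET heart, and the ranges overlapped.

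In HET hearts, ages pooled, no gene was called between probucol and chow. By limma 0 were lower and 0 higher, against 2.26% and 0.406% of all genes, with Pdk4 alone at an unadjusted p under 0.05 (-0.64 ± 0.28, limma adjusted p = 0.213). On probucol, dKO and HET hearts did not differ in a called gene, with 0 lower and 0 higher, against 0.0353% and 0.0353% of all genes, and Acadm alone had an unadjusted p under 0.05 (0.39 ± 0.14). The effect of probucol in dKO hearts minus that in HET hearts was called for 21 genes, all higher, against 10.9% higher and 8.71% lower of all genes. It was 1.30 ± 0.21 for Acadl (limma adjusted p = 2.4e-06), 1.2 ± 0.30 for Ucp3 and 1.19 ± 0.34 for Pdk4. Pdk4 was not called for probucol in dKO hearts at any single age. The HET probucol side rests on 8 hearts in all.

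**Figure D4:**
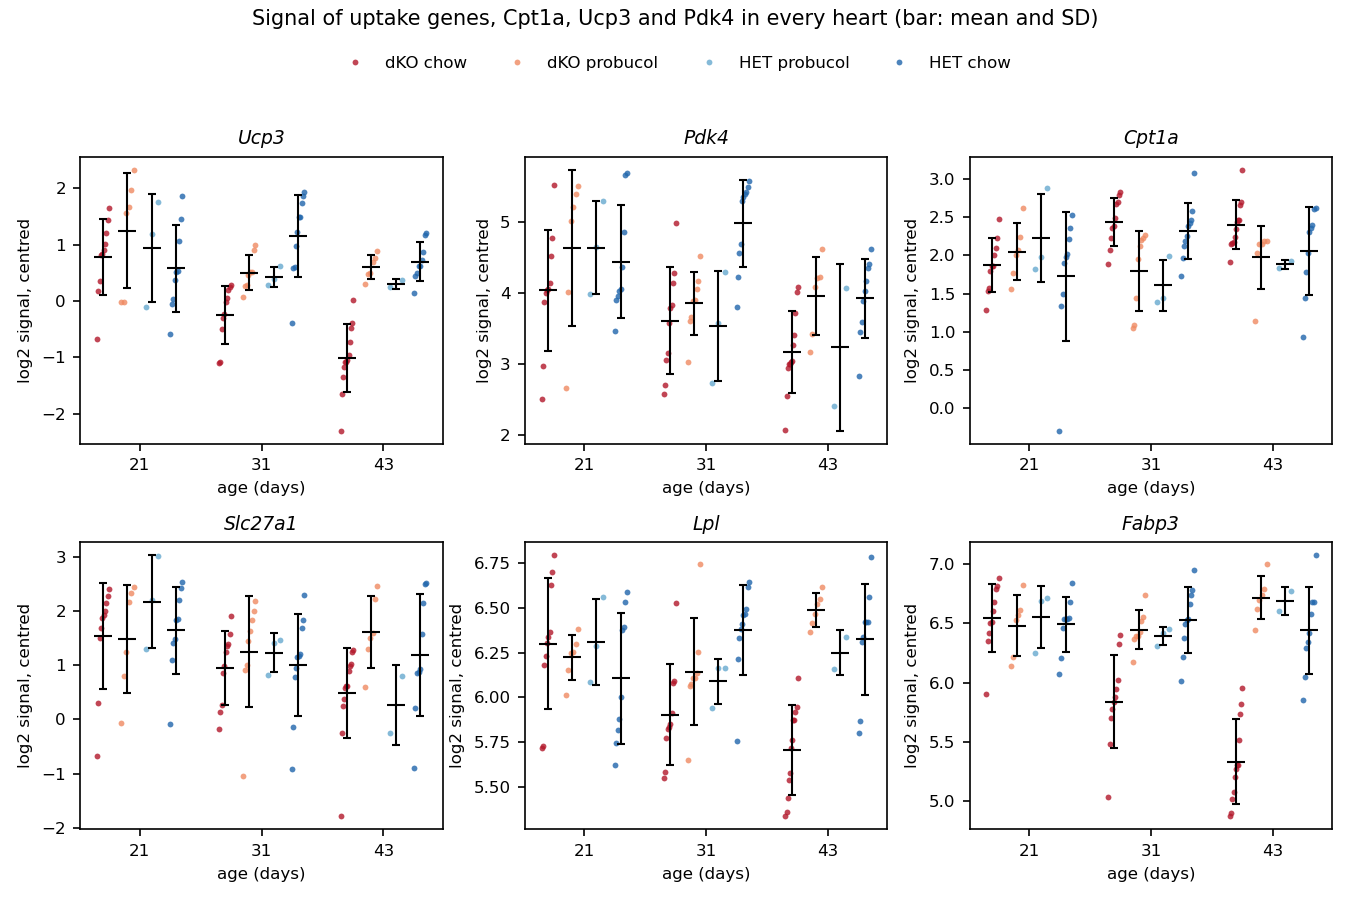
Centred log2 signal of Ucp3, Pdk4, Cpt1a, Slc27a1, Lpl and Fabp3 in every heart, by age and group, with mean and SD as black bars. Cpt1a shows overlapping dKO chow and HET chow hearts at every age, with dKO chow means of 2.44 and 2.40 at 31 and 43 days, while Fabp3 in dKO chow hearts averaged 5.33 at 43 days against 6.44 in HET chow hearts.

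The 25 genes differed in how closely they followed each other over the 12 group means. For 18 genes the correlation with the mean of the other members was above 0.92, up to 0.978 for Eci2. It was lowest for Cpt1a, at -0.45, Acads, at 0.57, Slc27a1, at 0.59, and Pdk4, at 0.67. The group means share arrays and centring, so these values are a description. The dKO chow hearts at 43 days had the lowest group mean for 23 of the genes, with Cpt1a and Slc27a1 lowest in HET probucol hearts at 31 and 43 days. The genes outside the list whose group means were most like the members' average were Ndufs3 (r = 0.994), Ndufb9, Apip, Ndufa5 and Fkbp4, each over 12 groups. Ndufs3, Ndufb9 and Ndufa5 encode subunits of respiratory complex I. Ndufs3 was lower in dKO chow hearts at 43 days at -1.23 ± 0.13 and higher with probucol by 1.23 ± 0.14.

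Markers of some cell types moved with these results. Of 13 heart muscle cell markers tested, 11 were lower and 0 higher in dKO chow hearts at 43 days, with a median of -0.64. At 31 days 12 were lower and 1 higher, with a median of -0.47. Of all genes 28.0% were lower and 19.2% higher at 43 days, and 23.0% and 8.27% at 31 days. Of 10 macrophage markers, 7, 8 and 10 were higher at 21, 31 and 43 days and 0 lower, with medians of 0.80, 1.71 and 2.62. The shares of all genes called higher at these ages were 4.07%, 8.27% and 19.2%. The summed signal below is that of the macrophage markers. Their summed signal at 43 days, over 12 markers on the array and as a multiple of the array median, was 183 to 308 in dKO chow hearts, 42.7 to 50.6 in dKO probucol hearts and 32.5 to 51.6 in HET chow hearts. The groups on chow did not overlap. Of 10 fibroblast markers 6 were higher and 1 lower at 43 days, and all 3 red cell markers tested were higher at each age. Of 8 skeletal muscle markers 4 were tested and 2 were lower, and 0 of the 6 liver markers on the array passed the signal filter. Of 8 endothelial markers 0 were lower and 2 higher at 43 days, with a median of 0.01. At 31 days 1 of them was lower and 0 higher, and at 21 days 0 and 2, with medians of -0.04 and 0.37. Of 3 fat cell markers tested 1 was lower and 0 higher at 43 days, and the 1 brown fat marker tested was lower. In whole hearts, fewer muscle cells and less RNA per muscle cell cannot be told apart, and the part of the cell mixture in the results was not tested.

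The mean of the 25 genes minus the mean of the heart muscle markers is a value per heart. It was -2.32 to -1.69 in dKO chow hearts at 43 days, with a mean of -1.94 ± 0.18, against -1.53 to -1.16 and -1.41 ± 0.12 in HET chow hearts (SD, n = 12 and 9). These groups did not overlap. At 31 days it was -1.65 ± 0.19 in dKO chow and -1.40 ± 0.17 in HET chow hearts (SD, n = 10 each), with overlap, and at 21 days -1.70 ± 0.17 and -1.63 ± 0.27. In dKO probucol hearts at 43 days it was -1.46 ± 0.13 (SD, n = 6). In HET probucol hearts at 43 days it averaged -1.67 and ran between -1.77 and -1.57 (n = 2), which overlapped dKO chow hearts. At 31 and 21 days HET probucol hearts had -1.64 ± 0.16 and -1.69 ± 0.42 (SD, n = 3 each). Lower values were thus also seen in HET hearts on probucol. Relative to heart muscle markers, 18 of the 25 genes were still lower at 43 days, Ech1 at -1.37 and Hadh at -1.31, against 7.0% lower and 53.9% higher of all genes. Lpl, Mlycd and Pdk4 were no longer called on that scale, and Acads and Acaa1a were at 0.17 and 0.20, not called, below the median of 0.48 for all genes.

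**Figure D5:**
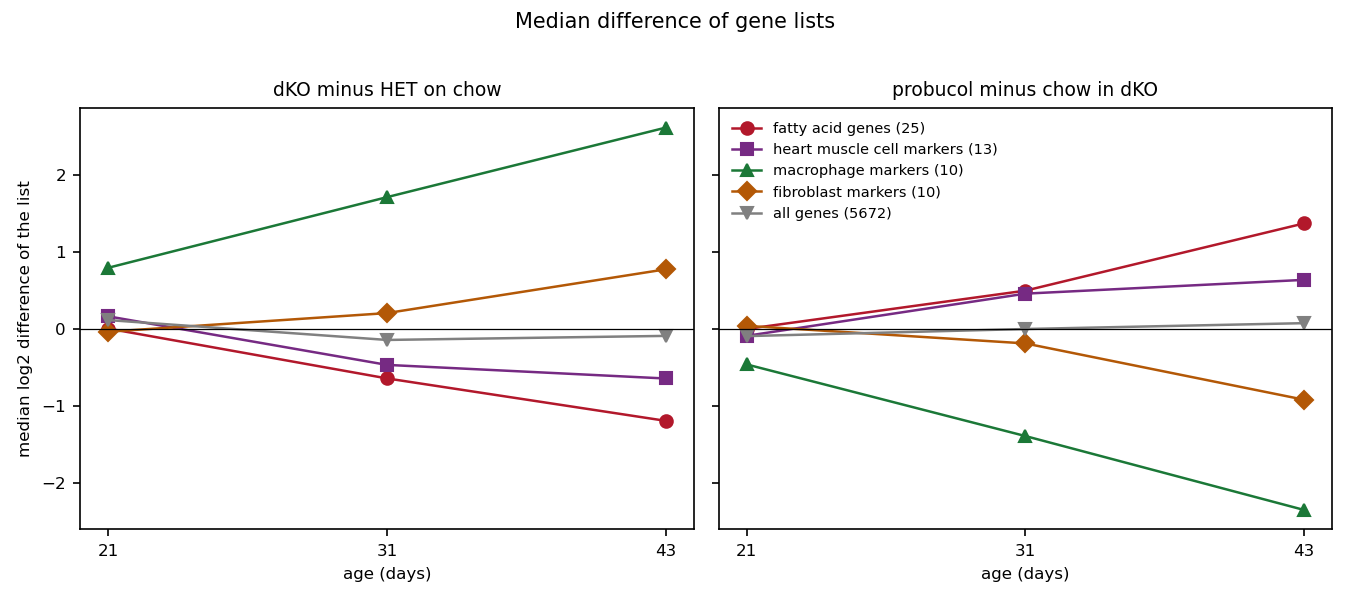
Median log2 difference of the 25 fatty acid genes, of heart muscle cell, macrophage and fibroblast markers and of all genes tested, by age, for dKO minus HET on chow (left) and probucol minus chow in dKO (right). The fatty acid genes reach -1.19 at 43 days on the left, below the heart muscle markers at -0.64, and 1.37 on the right, above the heart muscle markers at 0.64.

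Other genes of the pathway moved in part with the members. Of 11 further uptake genes tested, 6 were lower and 3 higher in dKO chow hearts at 43 days. The shares of all genes were 28.0% lower and 19.2% higher. Cd36, the main fatty acid translocase of the heart, was 0.84 to 2.11 in dKO chow hearts with a median of 1.16, against 1.58 to 3.02 with a median of 2.73 in HET chow hearts, a difference of -1.25 ± 0.15 (limma adjusted p = 4.21e-11). Vldlr, a receptor that binds triglyceride-rich lipoprotein, was lower, at -1.53 ± 0.18. Acsl4, an acyl-CoA synthetase that prefers arachidonic acid, was higher by 1.37 ± 0.19, as were Fabp5 and Acsl5. Macrophages express Fabp5 and Acsl4 as well, and the part of the cell mixture in these rises was not tested.

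Of 22 further oxidation genes, 14 were lower and 1, Acot9, higher at 43 days, with a median of -0.78. Of all genes 28.0% were lower and 19.2% higher. Mmut, the mutase of propionate breakdown, was lower, at -1.31 ± 0.16, Oxct1, which activates ketone bodies for oxidation, at -1.14 ± 0.12, and Phyh, a peroxisomal hydroxylase of branched chains, at -1.10 ± 0.12. With probucol 14 of the 22 were higher in dKO hearts at 43 days and 0 lower, against 21.3% and 17.0% of all genes.

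Among 10 nuclear receptors and coactivators, 5 were lower and 1 higher in dKO chow hearts at 43 days. Of all genes 28.0% were lower and 19.2% higher. Rxrg, a retinoid X receptor, the partner of PPARs, was -3.72 to -0.59 in dKO chow hearts with a median of -2.42, against -1.55 to 1.47 with a median of 1.0 in HET chow hearts. The difference was -2.71 ± 0.30 (limma adjusted p = 1.16e-12), wider than in any of the 25 genes. Ppara, the receptor for fatty acids, was -0.20 to 0.78 in dKO chow hearts with a median of 0.35, against 0.78 to 1.75 with a median of 1.13 in HET chow hearts. The difference was -0.79 ± 0.13 (limma adjusted p = 2.07e-07), and Ppara was the 1 gene of this list already called lower at 21 days. Esrra, the alpha form of the estrogen-related receptor, was lower, at -0.79 ± 0.11. Ppargc1a, their coactivator, and Nrip1, a corepressor, were also called lower, and Rxra higher. With probucol Rxrg was higher by 2.63 ± 0.34, Ppara by 0.69 ± 0.15 and Esrra by 0.58 ± 0.12.

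Of 11 genes of triglyceride turnover, 8 were lower and 1 higher at 43 days, against 28.0% and 19.2% of all genes. Lpin1, a phosphatidate phosphatase, was lower, at -1.28 ± 0.17 and Gpam, the first acyltransferase of glycerolipid synthesis, at -0.79 ± 0.11. Plin2, a coat protein of lipid droplets, was higher by 0.83 ± 0.11. Of 5 genes of malonyl-CoA and AMP kinase, Stk11 and Mid1ip1 were lower and Fasn, the fatty acid synthase, higher, by 0.69 ± 0.22. In a list of 5 these calls were not far from the same shares of all genes. Pdk3, another pyruvate dehydrogenase kinase, was higher by 1.47 ± 0.23 while Pdk1 differed at -0.16 ± 0.13, not called.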

How the data were processed

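The authors deposited 1 linear signal intensity per probe set and array, for 12488 probe sets on 88 arrays. The submitters' processing notes name MAS5 without a version, and how arrays were scaled to each other was not given in the sources used here. Per the labels' protocols, total RNA came from Trizol extraction and the cRNA carried biotin. Genotype, age and diet labels set the groups. For dKO chow replicate 2 at 21 days 1 label conflicts in age, and the title was followed. No detection calls were used. Precision is limited by how many arrays each group has.

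Signals under 4.22, which 10% of the values are, were set to 4.22, converted to log2 and centred on each array's median. Probe sets with 1 gene symbol in the platform annotation (10855, with 396 that had several) and in the upper 60% by mean were kept, and each gene was represented by its brightest such probe set. Differences near the floor are understated.

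The limma package (3.58.1, under R 4.3.3) fitted 12 group means to the 88 arrays (lmFit, eBayes with a trend). Benjamini-Hochberg adjustment ran over 5672 genes within each contrast. On simulated data 82% of 100 genes changed by 1 on the log2 scale were recovered in the genotype comparison at 43 days, 78% in the probucol comparison in dKO hearts at 43 days and 88% for probucol in HET hearts. For changes of 0.5 it was 45%, 32% and 49%. The members, the gene lists and the tests were chosen with earlier results of these data known.

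Every member could be named. In each pathway list, values were given for up to 3 genes with the smallest p in the genotype comparison at 43 days, and the 5 other genes most like the members over the 12 groups were named. Other genes named beside a count were chosen after their values were seen. Alternatives were signals as deposited, quantile normalization, centring on heart muscle markers, other floors and filters, the mean of probe sets, a fit of the compared groups alone, a block for replicate number, array weights, RNA ratios and a sex score as covariates, the array sets, and leaving out hearts. Leaving out each of 2 single hearts, and a fit within the smaller array set, were chosen after seeing the data. Figures were drawn with matplotlib 3.10.9. Promoter windows came from RefSeq.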

Additional observations from a re-analysis of the deposited data

Results flagged for a closer look

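Of 200 sets of values, each 1 gene in 1 group, 13 held a heart far from the others by Dixon's criterion. Chance alone gives this in about 1 set in 20. The dKO chow hearts at 43 days and the HET probucol hearts were not examined by it, owing to their group sizes. Among those not examined, dKO chow replicate 2 at 43 days held its group's lowest Slc27a1 (-1.78) and its highest value for most genes. The latter genes were Lpl, Fabp3, Cpt1a, Cpt2, Slc25a20, Acadl (3.61), Acadm, Hadhb, Acaa2, Eci1, Eci2, Decr1, Etfa, Etfb, Etfdh and Acaa1a. It was not the highest for Crat, Mlycd, Acads, Hadh, Ech1, Ivd, Ucp3 or Pdk4. For Fabp3 (5.96) and Etfdh (3.56) it alone of its group lay within the range of HET chow hearts. In dKO chow replicate 3 at 21 days Slc25a20 (3.24), Hadh (3.56) and Eci2 (3.08) were low. In HET chow replicate 7 at 31 days Lpl (5.76) and Etfa (4.11) were low and Acads (3.89) high. Single values were low for Slc27a1 in dKO probucol replicate 2 at 31 days (-1.04), Acaa2 in dKO probucol replicate 4 at 31 days (6.83), Cpt1a in dKO probucol replicate 6 at 43 days (1.15), Cpt1a in HET chow replicate 2 at 21 days (-0.29), Mlycd in HET chow replicate 9 at 21 days (3.27) and Crat in HET chow replicate 8 at 31 days (2.93). Acaa1a was high in dKO chow replicate 2 at 31 days (2.55). Without dKO chow replicate 3 at 21 days the change of the genotype difference between 21 and 31 days was called for 20 genes, and without HET chow replicate 7 the genotype difference at 31 days was called for 23.

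The genotype difference on chow changed with age by the test of the change itself, in limma. Between 21 and 31 days it was called lower for 18 genes, against 20.9% of all genes. That count rested on the scale and the arrays, as given above. The widest were Ucp3 (-1.59), Hadh (-0.98), Etfdh (-0.97) and Etfa (-0.93). Between 21 and 43 days it was called lower for 20, against 23.5% of all genes. These were led by Hadh (-2.0), Ucp3 (-1.91), Ech1 (-1.85) and Etfdh (-1.62). The probucol effect, ages pooled, was higher in dKO than in HET hearts for 21 genes, against 10.9% of all genes. These were led by Acadl (1.30), Ucp3 (1.2), Pdk4 (1.19) and Ech1 (1.04). For Pdk4 the probucol difference was not called in dKO hearts at any single age. In HET hearts, ages pooled, it was -0.64, also not called.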

How the results depend on the processing

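Of 1363 recomputed values of single members that had been called, 1285 kept direction and call, 71 lost the call and 7 changed sign. The 7 came with centring on heart muscle markers: Acads (0.025) at 31 days and Acads (0.17) and Acaa1a (0.20) at 43 days for genotype on chow, and Cpt2 (-0.058), Crat (-0.077), Mlycd (-0.012) and Slc25a20 (-0.025) for probucol in dKO hearts at 31 days. That centring also gave 10 calls for genotype at 31 days, 0 for its change between 21 and 31 days, 8 for dKO chow at 31 against 21 days, 6 for HET chow at 31 against 21 days and 3 each for probucol in dKO and for dKO probucol against HET chow at 31 days. Signals as deposited gave 1 call for genotype at 21 days, 0 for its change between 21 and 31 days, 9 for dKO chow at 31 against 21 days, 3 for HET chow at those ages, 11 for probucol in dKO at 31 days and 1 for dKO probucol against HET chow at 31 days. There the median of all genes for dKO chow at 31 against 21 days was 0.50. Quantile normalization gave 1 call for genotype at 21 days, 5 for its change between 21 and 31 days, 1 for HET chow at 31 against 21 days and 0 for dKO probucol against HET chow at 31 days. Within the larger array set genotype at 31 days had 14 calls, its change between 21 and 31 days 0 and dKO probucol against HET chow at 31 days 0. Blocking on array set gave 7 for that change and 1 for HET chow at 31 against 21 days. The 2 calls for dKO probucol against HET chow at 31 days became 1 with no filter, the mean of probe sets, only the groups compared, the actin ratio or the sex score, 4 with array weights, 5 with the Gapdh ratio, 0 in the smaller array set and 3 without HET chow replicate 7. Array weights gave 1 call each for genotype at 21 days and for HET chow at 31 against 21 days, where the Gapdh ratio gave 2, the actin ratio 1 and leaving out HET chow replicate 7 gave 1. The actin ratio gave 1 call for HET chow at 43 against 31 days. The causes were not tested. Leaving out single HET probucol hearts left 19 to 21 calls for the difference in probucol effect and 0 for the other pooled comparisons. With the replicate number as a block genotype had 22 calls at 31 days and 22 at 43 days, with Pdk4 not called at 43 days. Chow-fed dKO and HET hearts of the same number correlated at -0.18 to 0.34 after the group means were removed. Such values cannot show whether the numbers pair the hearts. At 43 days 18 to 24 genes were lower for genotype and 18 to 24 higher for probucol in the settings run, with 18 in each when centred on heart muscle markers.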

Other observations

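The mean of the 25 members in HET probucol hearts at 31 days was 3.88 ± 0.06 (SD, n = 3), with hearts at 3.83 to 3.95, against 4.23 ± 0.18 (SD, n = 10) and 4.0 to 4.46 in HET chow hearts of that age. The ranges did not overlap, and this comparison at 1 age was not tested. The smaller array set held 0 of these 3 HET probucol hearts and 6 of the 10 HET chow hearts. Diet and array set were therefore partly mixed in this comparison. The larger set held 4 of the HET chow and all 3 HET probucol hearts of this age, and these were not compared by themselves. At 21 and 43 days the HET probucol means were 4.32 and 4.07, against 4.21 and 4.13 in HET chow hearts. Over the successive ages the same mean was 4.27, 4.01 and 4.25 in dKO probucol hearts and 4.21, 3.57 and 3.04 in dKO chow hearts.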
